A study of Mus musculus with 40 samples.

Results

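Transcript levels of 7 genes for ion-pump subunits were examined in the mouse cortex after high-frequency head impact (HF-HI) and memantine. The genes were Atp1b1 and Atp1b2, which encode β subunits of the sodium-potassium pump, Atp2a2, which encodes the calcium pump of the endoplasmic reticulum, and Atp2b1, Atp2b2, Atp2b3 and Atp2b4, which encode calcium pumps of the plasma membrane. They were chosen by gene symbol, and every RefSeq transcript row that mapped to one of the symbols was kept, which gave 10 transcripts of 7 genes among 6831 transcripts of 5846 genes. All 10 transcripts were measured in all 40 libraries.

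The mice were C57BL/6 males, 12 weeks old. Each was injected intraperitoneally with saline or with memantine, which blocks glutamate receptors of the NMDA type, 1 h before every daily session of HF-HI or of a sham procedure, in which mice were anaesthetised without impacts. RNA was taken from the cortex 24 h after the last session. There were 10 libraries in each of 4 groups, sham and HF-HI under saline and sham and HF-HI under memantine, and all groups shared the strain, sex, age and daily injections. The labels do not say that each library came from a separate mouse, so the p-values measure the spread between these libraries.

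The sodium-potassium pump moves sodium out of the cell and potassium in, and this gradient drives neuronal firing and the uptake of glutamate. Its α subunit splits ATP and carries the ions, and its β subunit is needed to fold the pump and bring it to the cell surface. Atp1b1 (β1) is abundant in neurons, and Atp1b2 (β2, first known as an adhesion molecule on glia) is abundant in astrocytes. Calcium that enters a neuron through NMDA receptors and calcium channels is removed by the plasma membrane calcium pumps, which bind calmodulin, and is returned to the endoplasmic reticulum by the pump that Atp2a2 encodes. Atp2b1 is broadly expressed, while Atp2b2 and Atp2b3 are largely restricted to excitable cells and to cochlear hair cells in the case of Atp2b2.

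Summed counts ran from 13322402 to 17529642 per library, and no batch was given in the labels. The neuronal marker list was complete (12 of 12 in the table), 11 of 12 astrocyte, 10 of 12 oligodendrocyte and 5 of 10 microglial markers were present, and no listed gene was at 0 in any library. Markers of regions next to the cortex were present too, with 10 of 14 striatal, 3 of 8 thalamic, 3 of 7 hippocampal and 2 of 6 choroid plexus genes in the table. The summed level of the striatal list under saline was 33346 to 54441 (median 46965) in sham and 33932 to 47135 (39971) after HF-HI, and under memantine 36685 to 54339 (46495) and 31111 to 49741 (45394).

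Per length of transcript, the 7 genes fell into a high and a low set. In saline sham, Atp1b1 had 7887 ± 219 normalised counts per kilobase (mean ± SD, n = 10), followed by Atp2a2 with 4754 ± 242, Atp2b1 with 3595 ± 295 and Atp2b2 with 3006 ± 256. The low set was Atp2b4 with 725 ± 85.0, Atp2b3 with 714 ± 71.4 and Atp1b2 with 522 ± 79.2 normalised counts per kilobase. A normalised count is a read count divided by the size factor of its library, and the lengths were those of the matching GENCODE transcripts, which 9 of the 10 transcripts had. The transcript without one was NM_001347365 of Atp2b2. Its counts, a mean of 2.56% of the Atp2b2 sum over the 40 libraries, are left out of the per-length level of that gene. The order held in 40 of 40 libraries between Atp1b1 and Atp2a2, Atp2a2 and Atp2b1, Atp2b2 and Atp2b4, and Atp2b3 and Atp1b2, although the saline sham ranges of the last pair overlapped between libraries. Neighbours that were less clearly ordered were Atp2b1 and Atp2b2, whose saline sham ranges overlapped although Atp2b1 was the higher in 38 of 40 libraries, and Atp2b4 and Atp2b3, of which Atp2b4 was the higher in 14 of 40 libraries.

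**Figure D1:**
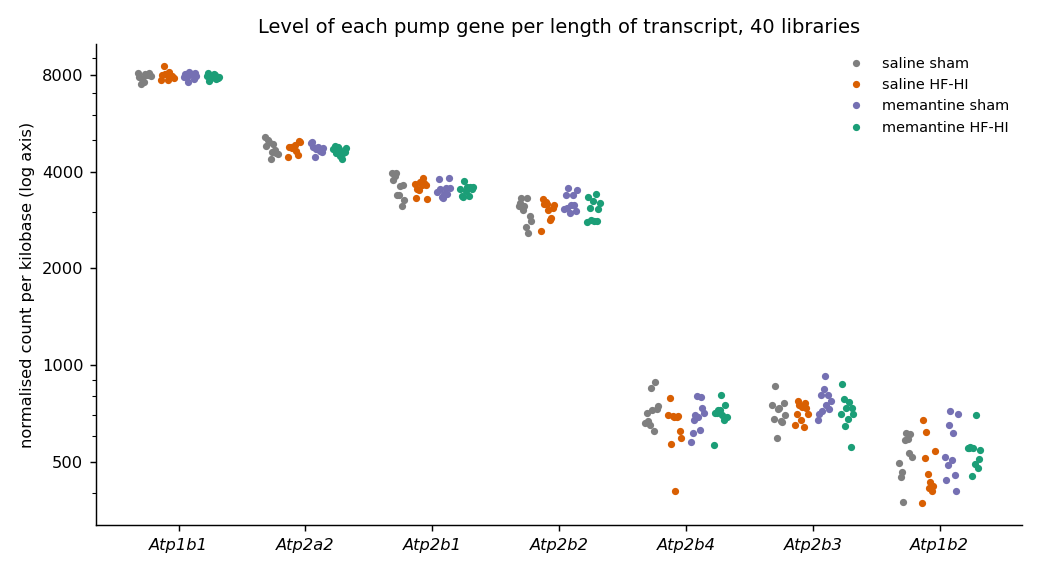
Normalised counts per kilobase of transcript (log axis) of the 7 genes, ordered by their saline sham mean, with 1 point per library and a colour per group. Atp1b1 is at the top (7473 to 8529 over the 40 libraries) and Atp1b2 at the bottom (372 to 717), and the colours overlap for every gene.

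Within each family, one or a pair of members made up most of the level. Per length, Atp1b1 was 15.4 ± 2.45 times Atp1b2 in saline sham (mean ± SD, n = 10), and the means of the other groups ran from 14.9 to 17.0 times, with 11.2 to 20.8 times in single libraries. Of the summed per-length level of the plasma membrane calcium pumps in saline sham, Atp2b1 took a mean of 44.7% (41.8% to 48.1% over its 10 libraries), Atp2b2 37.3% (35.5% to 40.3%), Atp2b4 9.09% (7.56% to 12.2%) and Atp2b3 8.89% (7.19% to 9.86%). The group means of these shares in the other groups ran from 42.9% to 44.9% for Atp2b1, from 38.1% to 39.3% for Atp2b2, from 8.07% to 8.82% for Atp2b4 and from 8.95% to 9.43% for Atp2b3. The ranges of every share overlapped among the 4 groups.

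The comparisons asked whether head impact changed the pump genes and whether memantine altered that response. For each gene the counts of its transcripts were summed, and log2(sum + 1) was tested with limma across all 5846 genes in 7 contrasts. At an unadjusted p under 0.05, the criterion of the study, 1 of the 7 genes passed for HF-HI against sham under saline, beside 10.7% of all genes tested. That gene was Atp2b4, and it was lower after HF-HI. None of the 7 genes passed for HF-HI against sham under memantine (4.38% of all genes), for memantine against saline in HF-HI (3.63%) or in sham (7.89%), or for the interaction of impact and drug (3.59%). None passed for HF-HI against sham averaged over both drug arms (10.9%) or for memantine against saline averaged over both impact arms (8.84%), and none reached an adjusted p under 0.1 in any contrast. In the order just given, an adjusted p under 0.1 was reached by 0.359%, 0.0171%, 0%, 0.0513%, 0%, 0.889% and 0.0684% of all genes. The contrasts share groups, so they are not independent of one another. In bulk tissue, fewer cells of a type and less RNA per cell cannot be told apart.

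**Figure D2:**
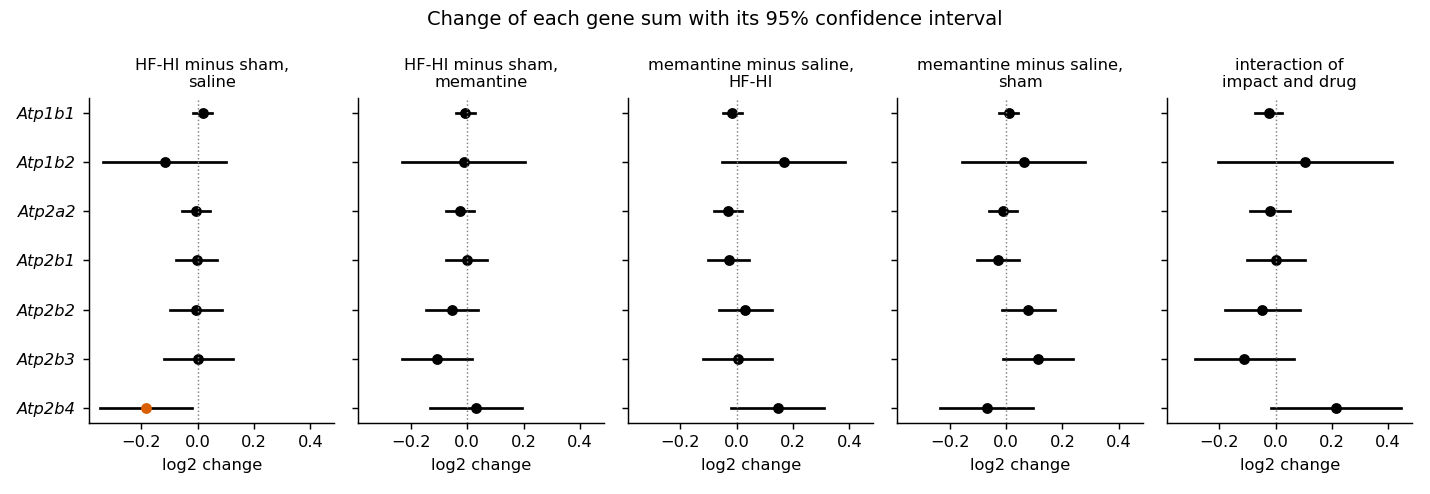
Log2 change of each gene sum (points) with its 95% confidence interval from limma (lines) in 5 contrasts; the interaction is the impact change under memantine minus that under saline. The orange point, Atp2b4 after HF-HI under saline, is the only one whose interval leaves out 0, and the intervals are narrowest for Atp1b1 and widest for Atp1b2.

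The 7 genes differed in how small a change could have been seen. The residual SD of log2(sum + 1) within groups was 0.036 for Atp1b1, 0.055 for Atp2a2, 0.082 for Atp2b1, 0.11 for Atp2b2, 0.14 for Atp2b3, 0.19 for Atp2b4 and 0.25 for Atp1b2, beside a median of 0.095 over all genes. Only 0.3% of all genes had a smaller spread than Atp1b1, and 89.5% had a smaller spread than Atp1b2. Between 2 groups, the smallest log2 change in either direction that would have passed an unadjusted p of 0.05 was 0.034 for Atp1b1, 0.050 for Atp2a2, 0.073 for Atp2b1, 0.094 for Atp2b2, 0.12 for Atp2b3, 0.16 for Atp2b4 and 0.22 for Atp1b2.

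Atp1b1 (chromosome 1, bases 164437099 to 164458355, mm10) had 1 transcript, NM_009721, and was the steadiest member. Under saline it had 20349 ± 566 normalised counts in sham and 20607 ± 631 after HF-HI, and under memantine 20475 ± 421 and 20374 ± 360 (mean ± SD, n = 10 each). The highest of the 40 libraries was 1.14 times the lowest. The log2 change after HF-HI was 0.018 under saline (95% confidence interval -0.016 to 0.052, limma p = 0.283) and -0.0071 under memantine (-0.041 to 0.026, p = 0.671). A change of more than 0.052 on the log2 scale in either direction thus lay outside both intervals. Memantine against saline gave -0.016 in HF-HI (-0.050 to 0.018) and 0.0091 in sham (-0.024 to 0.043).

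Atp1b2 (chromosome 11, bases 69599728 to 69605978), the glial β subunit, also had 1 transcript, NM_013415, and was the most variable member. Its lowest, median and highest normalised counts were 1062, 1487 and 1751 in saline sham, and 1056, 1265 and 1915 in saline HF-HI. They were 1155, 1454 and 2038 in memantine sham, and 1280, 1555 and 1980 in memantine HF-HI. The ranges of all 4 groups overlapped over most of their length, and saline HF-HI had the lowest median. The log2 change after HF-HI was -0.12 under saline (-0.34 to 0.10, limma p = 0.286) and -0.013 under memantine (-0.23 to 0.21, p = 0.908). Memantine against saline in HF-HI gave 0.17 (-0.053 to 0.39, p = 0.133), and 9 of 10 memantine HF-HI libraries lay above the saline HF-HI mean. Intervals of this width do not leave out changes of the size seen in Atp2b4.

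Atp2a2 (chromosome 5, bases 122453513 to 122502225) had 2 transcripts, NM_001110140 and NR_027838. RefSeq lists the latter as a non-coding RNA, while the GENCODE models matched to both hold a coding sequence of 3132 bases. Under saline the summed count was 22166 ± 1136 in sham and 22057 ± 817 after HF-HI, and under memantine it was 21984 ± 661 and 21575 ± 629. The log2 change of the sum after HF-HI was -0.0063 under saline (-0.056 to 0.043, limma p = 0.798) and -0.027 under memantine (-0.077 to 0.023, p = 0.277). Memantine against saline gave -0.032 in HF-HI (-0.081 to 0.018, p = 0.206). NR_027838 held 17.99% to 18.24% of the sum as a mean of a group, and 17.2% to 19.5% in single libraries, so the split between both transcripts was steady.

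**Figure D3:**
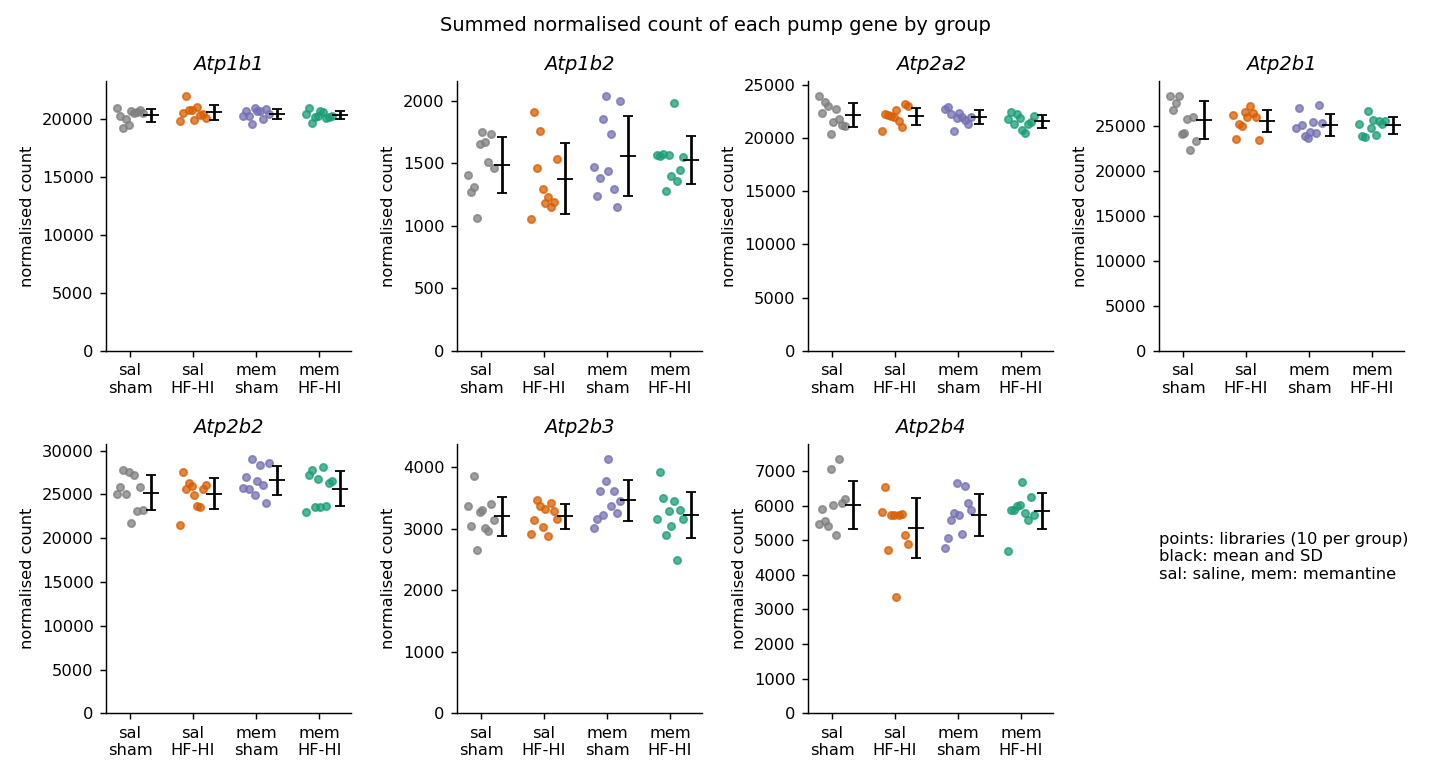
Summed normalised counts of the 7 genes in each library (points), with the mean and SD of each group in black; every axis starts at 0. The libraries of all 4 groups overlap for every gene, and the saline HF-HI library of Atp2b4 at 3365 lies far under the other 9.

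Atp2b1 (chromosome 10, bases 98914630 to 99026143), the broadly expressed plasma membrane calcium pump, had 1 transcript, NM_026482. Sham and HF-HI libraries had 25629 ± 2106 and 25521 ± 1239 counts under saline, and 25062 ± 1234 and 25014 ± 923 under memantine. The log2 change after HF-HI was -0.0032 under saline (-0.076 to 0.070, limma p = 0.930) and -0.0021 under memantine (-0.075 to 0.071, p = 0.953). Saline sham was the most variable group of this gene, with 22318 in the lowest and 28255 in the highest library.

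Atp2b3 (chromosome X, bases 73502749 to 73573275), the pump that is largely neuronal, had 1 transcript, NM_177236. The lowest, median and highest counts were 2657, 3205 and 3849 in saline sham, and 2880, 3222 and 3469 in saline HF-HI. They were 3014, 3414 and 4131 in memantine sham, and 2488, 3224 and 3915 in memantine HF-HI. Memantine sham had the highest median, and its range overlapped all others. Memantine against saline in sham gave a log2 change of 0.11 (-0.0095 to 0.24, limma p = 0.0693), with 8 of 10 memantine sham libraries above the saline sham mean, and HF-HI against sham under memantine gave -0.11 (-0.23 to 0.016, p = 0.0849). Neither passed, and both share the memantine sham libraries. With 1 library left out, the first passed in 4 of 40 fits (lowest p = 0.0207, 0.14, without saline sham replicate 3) and the second in 2 of 40 (lowest p = 0.0232, -0.14, without memantine HF-HI replicate 2). HF-HI against sham under saline gave 0.0029 (-0.12 to 0.13, p = 0.962).

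Atp2b4 (chromosome 1, bases 133702674 to 133801059), the calmodulin-binding pump also known from smooth muscle and red cells, was the member that passed the unadjusted test. Its transcript NM_001167949 had a lowest, median and highest count of 5151, 5953 and 7344 in saline sham, and of 3365, 5724 and 6539 in saline HF-HI. The counts were 4765, 5753 and 6649 in memantine sham, and 4689, 5868 and 6687 in memantine HF-HI. The saline groups overlapped, and 9 of 10 saline HF-HI libraries lay under the saline sham mean, while 8 of 10 memantine HF-HI libraries lay above the memantine sham mean. The log2 change after HF-HI was -0.18 ± 0.081 (SE) under saline (-0.35 to -0.019), with limma p = 0.0293 and an adjusted p of 0.412. The permutation test gave p = 0.0674 (two-sided, n = 10 per group). Under memantine the change was 0.032 ± 0.081 (p = 0.699), and the difference between both responses was 0.21 ± 0.11 (-0.017 to 0.45, p = 0.0682), which did not pass.

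The Atp2b4 result rested on single libraries at both ends. It was -0.11 (limma p = 0.104) without saline HF-HI replicate 6, which had the count of 3365, -0.17 (p = 0.0543) without saline HF-HI replicate 3, -0.16 (p = 0.0637) without saline sham replicate 5 and -0.15 (p = 0.0712) without saline sham replicate 8. In a fit of the 2 saline groups alone, p was 0.0626. Of the 10 striatal markers in the table, 8 were lower after HF-HI under saline (80.0% beside 10.7% of all genes), with a median log2 change of -0.21. With the mean of the striatal markers as a covariate the Atp2b4 change was -0.22 (limma p = 0.0168), beside -0.18 without it. These markers moved in the same comparison, so their part in the Atp2b4 change cannot be told apart and was not tested. Under that covariate the interaction (0.24, p = 0.0457) and memantine against saline in HF-HI (0.17, p = 0.0485) passed as well, which they did not without it (0.15 and p = 0.0809 for memantine against saline).

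Atp2b2 (chromosome 6, bases 113743831 to 114042613, minus strand) had 3 transcripts, and its sum differed from its parts. Summed counts in sham and HF-HI were 25222 ± 2039 and 25098 ± 1730 under saline, and 26599 ± 1653 and 25651 ± 1983 under memantine. The log2 change of the sum after HF-HI was -0.0059 under saline (-0.10 to 0.088, limma p = 0.899) and -0.054 under memantine (-0.15 to 0.040, p = 0.254), and memantine against saline in sham gave 0.079 (-0.015 to 0.17, p = 0.0989). The sum was mostly NM_009723 and NM_001036684, and NM_001347365 was a minor transcript that held 0.556% to 5.31% of the sum in any library.

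NM_009723 and NM_001036684 encode the same protein. In the matching GENCODE models they share 6780 exonic bases, among them all 3594 coding bases, and differ only outside the coding sequence. NM_001036684 has 1 exon block of its own, its first (bases 113891253 to 113891539, 287 bases), while NM_009723 has 4, of which the first exon (114041909 to 114042026, 118 bases) and 2 further blocks (46 and 95 bases) lie upstream and 1 block of 1838 bases extends the 3′ end. Their starts are 150487 bases apart. The 250 bases before each start are shown because the transcripts begin at these separate places, and they were taken from RefSeq on mouse build GRCm38.p6. They are written 5′ to 3′ on the minus strand, with the GC box (GGGCGG or its complement CCGCCC) in capitals. The windows are given by gene and not by transcript, so each was matched to a transcript by position. The RefSeq start behind the upstream window lies a little before the first exon of the GENCODE model matched to NM_009723. NM_001347365 had no matching model, so its start was not placed.

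Upstream start, NM_009723, chr6:114042081-114042330: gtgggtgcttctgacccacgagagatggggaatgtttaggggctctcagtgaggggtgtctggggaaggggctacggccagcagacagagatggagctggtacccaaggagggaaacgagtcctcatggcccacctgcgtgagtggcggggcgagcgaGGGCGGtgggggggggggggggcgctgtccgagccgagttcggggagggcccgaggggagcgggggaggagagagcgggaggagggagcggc

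Downstream start, NM_001036684, chr6:113891540-113891789: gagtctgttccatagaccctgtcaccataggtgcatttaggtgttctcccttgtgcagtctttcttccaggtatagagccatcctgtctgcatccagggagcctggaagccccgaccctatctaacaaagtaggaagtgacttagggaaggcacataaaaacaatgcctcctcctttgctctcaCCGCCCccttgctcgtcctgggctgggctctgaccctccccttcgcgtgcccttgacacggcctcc

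The upstream window held 16 CpG dinucleotides and was 69.6% G and C, while the downstream window held 6 and was 55.6%, beside medians of 6 and 52.4% over 32851 mouse promoter windows of the same length. Each held 1 GC box, and 32.7% of all windows held at least 1 on either strand. Neither held the letters TATAAA (12.4% of all windows) or TGACGTCA (1.55%). A match of letters is a description and not a binding site. RefSeq lists a further Atp2b2 start between them, at a window of 6 CpG and 52.0% G and C, which was not tied to a deposited transcript. Promoter windows were found for 4 of the 7 genes.

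The counts of the upstream and the downstream transcript were split differently in 4 libraries. NM_001036684 had a lowest, median and highest count of 2579, 9361 and 11331 in saline sham, and of 8445, 9761 and 11927 in saline HF-HI. It had 7977, 10944 and 12442 in memantine sham, and 1305, 9366 and 11046 in memantine HF-HI. The low values were those of saline sham replicates 5, 8 and 9 (2579, 2948 and 2668) and of memantine HF-HI replicate 3 (1305), and no other library was under 7781. In these 4 libraries NM_009723 was at 19188 to 25711, above the 11070 to 18570 of the other 36. As a share of the gene sum, NM_001036684 was at 4.70% to 12.8% in the 4 libraries and at 31.1% to 46.7% in the other 36, while the gene sum was at 23117 to 27749 in the 4 and 21566 to 29049 in the other 36.

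**Figure D4:**
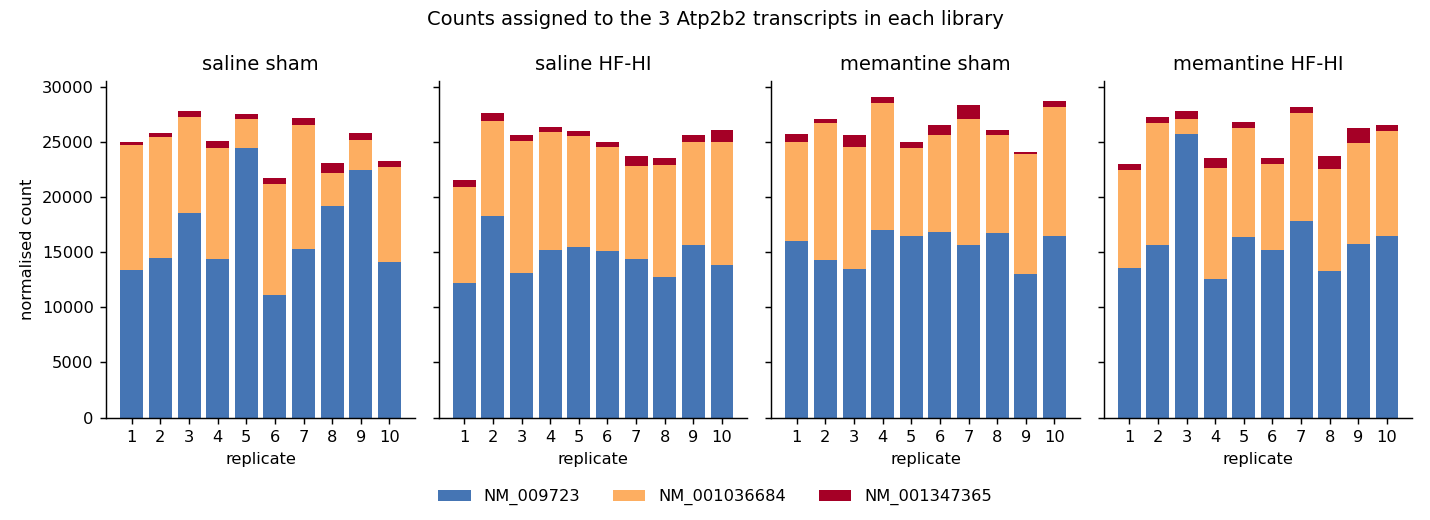
Normalised counts assigned to NM_009723 (blue), NM_001036684 (orange) and NM_001347365 (red) in each library, stacked to the Atp2b2 sum, with the 4 groups side by side. In saline sham replicates 5, 8 and 9 and memantine HF-HI replicate 3 the orange part is small (1305 to 2948) and the blue part large, while the height of the bar is like that of the other libraries.

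These 4 libraries were set apart after their values were seen, so the difference between them and the rest is described without a test. Among all 6831 transcripts, 2 had ranges that did not overlap between the 4 libraries and the other 36, and they were NM_001036684 and NM_009723. The 4 libraries were chosen by the share that these transcripts set, so this cannot show that the libraries differed only in Atp2b2. The size factors of the 4 libraries were 0.859 to 1.10, beside 0.865 to 1.14 in the others. Their Atp2b4 sums were 5862 to 7344, beside 3365 to 6687 in the other 36, and included the 2 highest of the 40. Whether a shared source other than Atp2b2 set these libraries apart was not tested.

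Comparisons of NM_001036684 between groups were made with all 40 libraries and again without these 4. On the deposited scale, 1 of the 10 transcripts passed an unadjusted p of 0.05 for HF-HI against sham under saline (Atp2b4, beside 9.53% of all transcripts), 1 for memantine against saline in sham (7.51%) and 1 for the interaction (3.73%), the last pair both being NM_001036684. None of the 10 passed for HF-HI against sham under memantine (4.61% of all transcripts), for memantine against saline in HF-HI (3.91%), or for impact (9.66%) and drug (8.11%) averaged over the other factor, and none had an adjusted p under 0.1, which 0.205%, 0.0293% and 0% of all transcripts had in the first 3 of these comparisons and 0.0146%, 0%, 0.425% and 0.0146% in the other 4. Memantine against saline in sham gave 0.42 ± 0.20 for NM_001036684 on the deposited scale (limma p = 0.0393, adjusted p = 0.640), which is 0.59 in log2 counts, with a permutation p of 0.0827. The interaction was -0.64 ± 0.28 (p = 0.0261, adjusted p = 0.999). With 1 library left out, the first passed in 31 of 40 fits and was lost without saline sham replicate 5, 8 or 9 or memantine sham replicate 2, 3, 4, 7, 9 or 10 (p up to 0.109), and the interaction passed in 40 of 40 (p up to 0.0499). Without the 4 libraries of low NM_001036684 share the same values were 0.022 and -0.066. These libraries were picked by the share of this same transcript, so the smaller values follow from the choice and are not a test. The saline sham mean of NM_001036684 was 7919 ± 3702 with all 10 libraries and 10143 ± 1147 in the other 7.

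The split among transcripts was also tested directly, with limma's F-test of the logit of each transcript's share over the 4 groups. None of the 5 transcripts of Atp2a2 and Atp2b2 passed an unadjusted p of 0.05, beside 5.2% of 1672 transcripts of genes with several transcripts in the table. The p was 0.217 for NM_001036684, 0.208 for NM_009723, 0.492 for NM_001347365, 0.975 for NM_001110140 and 0.963 for NR_027838. Counts of transcripts that share most of their sequence were divided by the authors' counting program, so the counts of single transcripts are less certain than their sum.

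The 4 libraries also bear on Atp2b4. Without them, its change after HF-HI under saline was -0.10 (limma p = 0.239). The saline sham libraries with the highest Atp2b4 counts, replicates 5 (7042) and 8 (7344), were among those left out.

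Partners of the pumps were followed in a list of 23 subunits and regulators, 9 of which were in the table. For HF-HI against sham under saline, 0 rose and 1 fell, 11.1% beside 10.7% of all genes. That gene was Fxyd6, a small regulator of the sodium-potassium pump (log2 change -0.14 ± 0.059, limma p = 0.0191, adjusted p = 0.363). None of the 9 passed for memantine against saline in sham (7.89% of all genes) or in HF-HI (3.63%), or for the interaction (3.59%). The median change of the list was -0.020 under saline and -0.031 under memantine, beside -0.00015 and -0.00096 over all genes.

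Genes of calcium release, exchange and buffering had the largest share past the unadjusted test among the 5 lists of pump-related genes after HF-HI under saline. Of 26 genes in the table (34 listed), 2 rose and 6 fell in that comparison, 30.8% beside 10.7% of all genes, with a median of -0.018. The list was chosen with earlier results of these data known, so this share is a description and not independent evidence. The smallest p-value among those that fell was that of Orai2, a store-operated calcium channel subunit (-0.15 ± 0.038, limma p = 0.000397, adjusted p = 0.101), and among those that rose that of Slc24a2, a sodium-calcium exchanger that also needs potassium (0.10 ± 0.042, p = 0.0231, adjusted p = 0.383). The others, named after their values were seen, were Hspa5 (-0.19 ± 0.058), Calr (-0.093 ± 0.043), Ryr3 (-0.21 ± 0.064), Calb1 (-0.099 ± 0.046) and Saraf (-0.054 ± 0.026), which were lower, and Pvalb (0.16 ± 0.073), which was higher. Hspa5 and Calr are chaperones of the endoplasmic reticulum, where Calr also binds calcium, and Ryr3 is a calcium release channel there. Under memantine 0 of the 26 rose and 1 fell (Hspa5, -0.12 ± 0.058), 3.85% beside 4.38%. Memantine against saline in sham gave 2 higher and 3 lower (19.2% beside 7.89%). Among them were Slc24a2 (0.093 ± 0.042), Calr (-0.090 ± 0.043), Calb1 (-0.15 ± 0.046) and Saraf (-0.090 ± 0.026). Each moved in the same direction as after HF-HI under saline, and both comparisons share the saline sham libraries. A further gene that was higher with memantine in sham did not pass after HF-HI under saline. Memantine against saline in HF-HI gave 1 higher (Stim1, 0.092 ± 0.043, 3.85% beside 3.63%), and the interaction 1 higher (Calb1, 0.15 ± 0.064, 3.85% beside 3.59%). Averaged over both drug arms, 1 rose and 3 fell after HF-HI (15.4% beside 10.9%), and Orai2 (-0.11 ± 0.027, limma adjusted p = 0.0549) and Hspa5 (-0.16 ± 0.041, adjusted p = 0.0897) had an adjusted p under 0.1 there. The 8 of 10 striatal markers that were lower after HF-HI under saline moved in the same comparison as this list, and their part in it was not tested. The list was not tested as a set, and Atp2a2, which fills the same calcium store, was at -0.0063 ± 0.025 after HF-HI under saline.

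Transporters that use the sodium and potassium gradients were followed in a list with 14 genes in the table. The median log2 change of the list after HF-HI was -0.023 under saline and -0.019 under memantine. None of the 14 passed for memantine against saline in sham (7.89% of all genes), in HF-HI (3.63%) or for the interaction (3.59%). For memantine against saline averaged over both impact arms, 1 of the 14 was higher, 7.14% beside 8.84%. Of 17 vacuolar proton pump genes, 1 was lower after HF-HI under saline (Atp6v0a2, -0.063 ± 0.030), 5.88% beside 10.7% of all genes. With memantine in HF-HI 2 were lower, 11.8% beside 3.63%, of which Atp6v1e1 had the smaller p (-0.079 ± 0.030, p = 0.0120, adjusted p = 0.997). None of 10 other P-type ATPase genes, among them lipid flippases, passed in any of the 4 comparisons of 2 groups or in the interaction. Of all genes, 3.59% to 10.7% passed in these comparisons. Averaged over both drug arms, 1 of them was higher (Atp11b) and 1 lower (Atp11a), 2 of 10 beside 10.9% of all genes.

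Across the 40 libraries, the pump genes varied partly together and partly in opposite directions. Of 21 pairs, 4 had an adjusted p under 0.05 by Pearson's r and 4 by Spearman's rho (permutation tests, adjusted over the 21 pairs). Atp1b2 and Atp2b1 were opposed (r = -0.63, adjusted permutation p = 0.00063; rho = -0.67, adjusted permutation p = 0.00021), and so were Atp2a2 and Atp2b4 (r = -0.46, adjusted permutation p = 0.0174; rho = -0.59, adjusted permutation p = 0.00084). Atp2b2 went with Atp1b2 (r = 0.47, adjusted permutation p = 0.0174; rho = 0.49, adjusted permutation p = 0.00861) and with Atp2b3 (r = 0.41, adjusted permutation p = 0.0418; rho = 0.41, adjusted permutation p = 0.0455). Without the 2 libraries farthest from the median of the first gene, r was -0.61, -0.43, 0.45 and 0.42 for Atp1b2 and Atp2b1, Atp2a2 and Atp2b4, Atp1b2 and Atp2b2, and Atp2b2 and Atp2b3. With the group means removed, r was -0.62, -0.50, 0.44 and 0.35 in the same order.

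**Figure D5:**
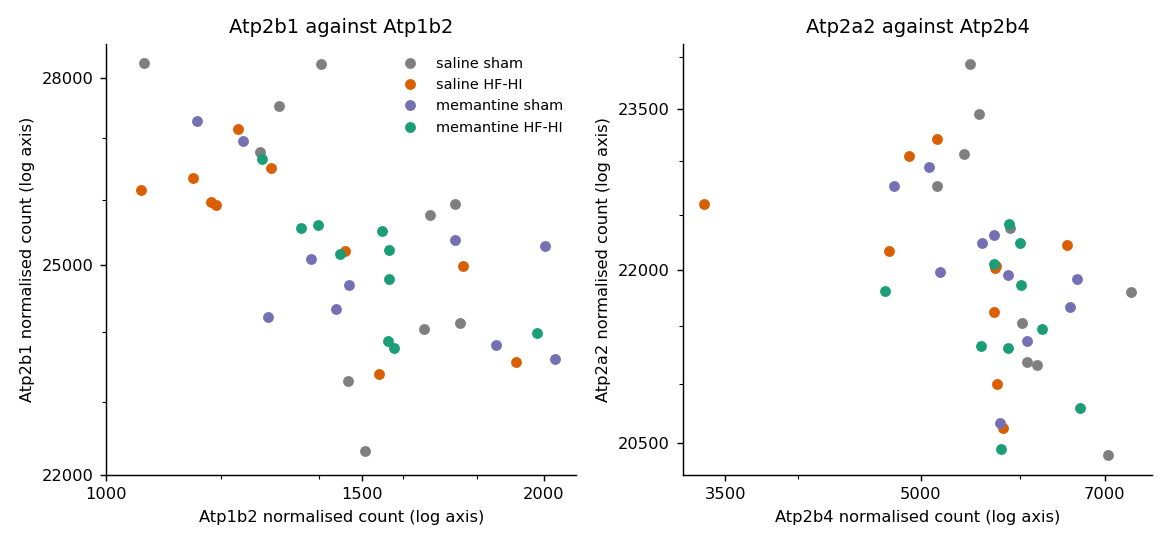
Normalised counts (log axes) of Atp2b1 against Atp1b2 (left) and of Atp2a2 against Atp2b4 (right), with 1 point per library and a colour per group. Both clouds slope down (Pearson's r of -0.63 and -0.46 over 40 libraries), and the 4 colours are mixed along the slope.

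The base composition of what each library captured moved with some of these genes. For each library, the slope of its log2 deviations on the GC content of the transcript was taken per 10 percentage points, and it ran from -0.16 to 0.14, with overlapping ranges in the 4 groups. Atp2b2 rose with that slope (r = 0.68, adjusted permutation p = 0.00014 over 14 pairs; rho = 0.69, adjusted permutation p = 0.00014), as did Atp1b2 (r = 0.58, adjusted permutation p = 0.00091; rho = 0.56, adjusted permutation p = 0.00119). Atp2b1, whose transcript has 42.6% G and C against 53.0% for NM_001036684 and 52.4% for Atp1b2, fell with it (r = -0.53, adjusted permutation p = 0.00201; rho = -0.50, adjusted permutation p = 0.00457). Without the 2 libraries of most extreme slope, r was 0.65, 0.54 and -0.47. Atp2b3, whose transcript has 53.7% G and C, did not pass (r = 0.26, adjusted permutation p = 0.247). Neither did Atp1b1 (49.5%, r = -0.36, adjusted permutation p = 0.0644), Atp2a2 (50.8% and 48.2%, r = -0.19, adjusted permutation p = 0.359) or Atp2b4 (48.3%, r = 0.034, adjusted permutation p = 0.831). Whether the GC content of the transcript set the order of these values was not tested. With group means and this slope removed, r was -0.46 for Atp1b2 and Atp2b1, -0.51 for Atp2a2 and Atp2b4, 0.11 for Atp1b2 and Atp2b2, and 0.29 for Atp2b2 and Atp2b3. Pairs outside these 4 became larger, with 0.54 for Atp1b1 and Atp1b2 (0.21 with only the group means removed), 0.47 for Atp2a2 and Atp2b2 (0.20) and 0.40 for Atp2b1 and Atp2b2 (-0.10). The value of Atp2a2 and Atp2b4 was as large with the slope removed, and that of Atp1b2 and Atp2b2 was smaller. The 4 libraries of low NM_001036684 share had slopes of 0.0040 to 0.095.

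The striatal marker level was compared with the 7 genes in the same way. Atp1b1 was lower where the striatal level was higher (r = -0.51, adjusted permutation p = 0.00305; rho = -0.48, adjusted permutation p = 0.00683; r = -0.49 without the 2 most extreme libraries). For Atp2b4 the value was -0.086 (adjusted permutation p = 0.695; rho = -0.064, adjusted permutation p = 0.694).

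The genes most like each member over the 40 libraries, by Pearson's r of log2(sum + 1) among 5845 others, were named as a description, since they were chosen as the highest values. They were Prepl (r = 0.64) and Rab18 (0.63) for Atp1b1, and Epas1 (0.89) and Slc25a23 (0.88) for Atp1b2. For Atp2a2 they were Tlcd4 (0.75) and Vmp1 (0.63), and for Atp2b1 Ppp3ca, the catalytic subunit of the calmodulin-dependent phosphatase calcineurin (0.82), and Ano3 (0.78). Dagla (0.87), which makes an endocannabinoid, and Adgrl1 (0.86) were nearest to Atp2b2, Efcab14 (0.66) and Rad54l2 (0.61) to Atp2b3, and Phf21a (0.67) and Acvr2a (0.61) to Atp2b4.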

How the data were processed

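RNA of 40 cortex libraries was sequenced by the authors. The study's methods name ribosomal depletion, stranded libraries, alignment to mm10 with STAR, counts per RefSeq transcript with eXpress and DESeq2, while the submitters' processing notes name HISAT2 and StringTie. Values were deposited as log2-like numbers from DESeq2's variance-stabilising transformation, made by the authors, and cover abundant transcripts (lowest mean count 549.2). The transformation was inverted with its floor of 10.36, which stands for a count of 0. Of the values under 5000 (92.4% of all), 100% were then whole multiples of 1 over a size factor (tolerance 0.05 counts). The size factors ran from 0.859 to 1.14. These values thus came from whole counts, which does not give the precision of a count. Symbols covered 99.6% of the transcripts (RefSeq and GENCODE M21, GRCm38).

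Groups came from the labels, which give 10 libraries per group where the series' design text gives 4 samples. The closest of 180 pairs of libraries within a group differed by a chi-square of 44.2 per degree of freedom, so no library was counted as a repeat. The tests were limma 3.58.1 (R 4.3.3, trend in the prior, 1 term per group, all 40 libraries) on the deposited values, on log2(summed count + 1) per gene and on the logit of transcript shares (offset 0.5 counts), and 2-sided permutation tests with 100000 resamples; adjusted p-values are Benjamini-Hochberg over all features. Alternatives were the replicate block, median centring, a count filter, another pseudocount or offset, fits of only the groups compared, covariates and single libraries left out. The scripts were tested on simulated data. The members and gene lists were chosen with earlier results of these data known. All transcripts of the members are named, as are the 2 genes most like each member and, from each pathway list, the genes with the smallest p in each direction where they passed. A few genes of these lists are not reported here. Protein sequences were not used here.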

Additional observations from a re-analysis of the deposited data

Results flagged for a closer look

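In 48 groups of 10 libraries (7 gene sums and 5 transcripts of genes with several, 4 groups each), a library was set apart where its gap to the next library, as a share of the range of the group on the log2 scale, exceeded Dixon's critical value for 10 values, which chance gives in about 1 of 20 groups. This held for 5 values. The Atp1b2 count of memantine HF-HI replicate 7 (1980) was the highest of its group, with a gap of 0.522 of the range. The Atp2b4 counts of saline HF-HI replicate 6 (3365) and memantine HF-HI replicate 1 (4689) were the lowest of their groups, with gaps of 0.508 and 0.492.

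For Atp2b2, memantine HF-HI replicate 3 had the lowest count of NM_001036684 in its group (1305, a gap of 0.836 of the range) and the highest count of NM_009723 (25711, a gap of 0.515). The 3 saline sham libraries with the same split were not set apart by this measure, since they lie close to one another. The impact response of NM_001036684 differed between the drug arms by -0.645 on the deposited scale (limma p = 0.0261, adjusted p = 0.999). Without the 4 libraries of low NM_001036684 share the difference was -0.066, which is not a test since the share of this transcript picked them.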

How the results depend on the processing

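The number of the 7 genes past an unadjusted p of 0.05 after HF-HI under saline was 1 as reported, and 0 with an adjusted p under 0.1, with only the groups of the contrast, and without the 4 libraries of low NM_001036684 share, an alternative added after seeing the data. Among the 10 transcripts, 1 as reported became 0 in the same contrast and for memantine against saline in sham under each of these 3 alternatives, and 0 for the interaction with an adjusted p and without the 4 libraries. For NM_001036684 the loss without the 4 libraries is not a test, since they were picked by its share. With the striatal marker mean as a covariate, the interaction had 2 transcripts and 1 gene, and memantine against saline in HF-HI had 1 gene. Centring each library on its median, a filter at a mean count of 1000, another pseudocount or offset, and the GC slope as a covariate (added after seeing the data) kept each of these counts within 1.5 times.

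With 1 library left out at a time (40 fits), the counts of transcripts ran from 0 to 3 for HF-HI under saline, 0 to 1 for HF-HI under memantine, 0 to 1 for memantine in HF-HI, 0 to 2 for memantine in sham and 1 to 2 for the interaction. Counts of genes ran from 0 to 1 for HF-HI under saline, 0 to 1 under memantine, 0 to 2 for memantine in HF-HI, 0 to 1 for memantine in sham and 0 to 1 for the interaction. For both averaged contrasts and for transcript shares they stayed at 0.

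No pairing of the samples by replicate number was visible, which does not exclude one. Libraries of the same number had mean correlations of -0.0125 to 0.0218 over 6 pairs of groups, and 1 of 10 matched its own number best in each. With the replicate block, counts of transcripts were 1 for HF-HI under saline, memantine in sham and the interaction and 0 elsewhere, counts of genes were 1 for HF-HI under saline and 0 elsewhere, and Atp2b4 had p = 0.0268 (limma).

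Of 84 single values, 26 changed sign under an alternative and 19 when 1 library was left out, and in 0 of these did either fit pass an unadjusted p of 0.05. Why the values moved was not tested. The spread between libraries sets the limit: at this spread a log2 change smaller than 0.16 in Atp2b4 or 0.22 in Atp1b2, in either direction, would not have passed.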
